A study of Mus musculus with 39 samples.

Results

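The core circadian clock was followed in subcutaneous adipose tissue of mice through 10 genes, chosen by name: Arntl, Clock, Npas2, Per1, Per2, Per3, Cry1, Nr1d1, Nr1d2 and Dbp. They are 10 of the 29411 gene names on the array, and 16 probes carry them: 3 probes each for Clock and Nr1d1, 2 each for Per2 and Cry1, and 1 for each of the other 6 genes. The tissue came from C57BL/6J mice that were weaned at 3 to 4 weeks of age, held in light and dark periods of equal length with free access to food and water, and divided into 5 groups of 30 animals, of which 5 per group were killed every 3 weeks. The LFC group ate a low-fat diet with 10% of its calories from fat. The HFC group ate a high-fat diet with 60% of its calories from fat and added sucrose. The groups HF5, HF20 and HF75 ate that same high-fat diet together with 5, 20 or 75 µg of KAL-1, an ethnobotanical formulation. There was 1 array for each diet and time point, which gave 10 LFC arrays, 11 HFC arrays and 6 arrays for each dose of KAL-1, 39 in all, although the submitters describe 3 biological replicates. LFC and HFC were measured at Day 6, Day 10 and Day 14 and at Week 0, 3, 6, 9, 12, 15 and 18, HFC also at Day 1, and the doses of KAL-1 from Week 3 to Week 18. The study merged Day 14 with Week 0 and counted its weeks from there, whereas here they stand as 2 of the 10 time points, both among the 4 early ones. The labels give neither the hour of the day at which tissue was taken, nor the sex of the animals, nor whether an array holds 1 animal or a pool, so the p-values below measure only the spread between arrays.

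The mammalian clock is a feedback loop of transcription. The activators Arntl (also called Bmal1) and Clock, or its relative Npas2, bind E-box sequences and switch on the Per and Cry genes, whose proteins then repress the activators, and the same E-boxes drive Nr1d1 and Nr1d2 (the REV-ERB receptors) and the output factor Dbp. Nr1d1 and Nr1d2 repress Arntl and Npas2 through ROR elements, and in rodent tissues, fat included, the Arntl transcript therefore peaks in a part of the day at which the Dbp transcript is low.

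The promoter stretches that hold these elements are shown because they are the letters through which the genes are known to be coupled. RefSeq windows (build GRCm38.p6) from 250 bases before to 50 bases after a transcription start were at hand for 9 of the 10 genes, in 13 windows. 4 motifs were searched on both strands: the E-box CACGTG, its variant CACGTT, the D-box TTANGTAA that Dbp and its relatives bind, and the ROR element ANTNGGTCA. Capitals mark the matches, AACGTG being CACGTT read from the opposite strand, and every stretch runs 5′ to 3′ along its gene. The stretches are Per3 at chr4:151044784-151044903 (minus strand), Cry1 at chr10:85185062-85185181 (minus strand), Per1 at chr11:69098726-69098845 (plus strand), Nr1d1 at chr11:98775378-98775497 (minus strand) and Arntl at chr7:113207528-113207557 (plus strand):
Per1: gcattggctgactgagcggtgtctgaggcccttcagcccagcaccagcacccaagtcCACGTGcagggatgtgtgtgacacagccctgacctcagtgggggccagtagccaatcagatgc
Cry1: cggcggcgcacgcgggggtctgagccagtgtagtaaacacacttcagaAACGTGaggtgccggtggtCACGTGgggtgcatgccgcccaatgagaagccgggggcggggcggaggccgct
Nr1d1: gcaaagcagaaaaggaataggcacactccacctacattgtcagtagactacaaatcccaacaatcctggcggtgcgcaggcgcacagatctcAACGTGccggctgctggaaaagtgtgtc
Per3: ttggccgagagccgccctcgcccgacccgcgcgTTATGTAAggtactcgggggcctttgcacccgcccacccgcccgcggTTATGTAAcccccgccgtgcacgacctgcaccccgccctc
Arntl: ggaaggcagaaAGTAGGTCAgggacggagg

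Per1 held an E-box 166 bases before its start, and Cry1 held an E-box 60 bases and the variant 79 bases before its start. Nr1d1 held the variant 28 bases before its start. Per3 held a D-box at both 205 and 158 bases before its start. Arntl held a ROR element 28 bases after its start. Of all 32851 RefSeq windows of this length, 7.15% held the E-box, 4.68% the variant, 2.32% the D-box and 2.24% the ROR element. The windows of Clock, Npas2, Nr1d2 and Dbp held none of these letters. A match is a description of the letters and not a measured binding site.

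Levels are given throughout as log2 of the processed intensity of a probe minus log2 of the 75th percentile of its array, so 0 is the brightness of the 75th percentile and a difference of 1 is a doubling. The arrays held 43803 spots, of which 49.3% to 87.8% (median 65.7%) were well above background, and the 75th percentile lay between 108 and 1285 intensity units. All 6 genes of an adipocyte marker list (Adipoq, Fabp4, Plin1, Lep, Cidec and Lipe) were well above background on all 39 arrays, with a mean level between 0.74 and 5.40. Means of other marker lists ranged from -5.30 to 7.60 for skeletal muscle, from -2.63 to 2.48 for macrophages, from -5.94 to 0.20 for lymphocytes and from -6.59 to -1.22 for epithelium and mammary gland, and Csn2 of the last list was well above background on 0 arrays. 6 arrays stood apart in immediate early genes (Fos, Fosb, Egr1, Junb, Atf3 and Ier2): HFC of Day 1, LFC and HFC of Day 6, HFC of Day 10, HF75 of Week 3 and LFC of Week 12 had a list mean between -1.11 and -0.78, and the other 33 arrays between 4.27 and 5.92. On the same 6 arrays the skeletal muscle mean lay between 1.66 and 7.60 (median 4.92) and on the others between -5.30 and 6.44 (median -1.48), so that they overlapped. For Week 12, the authors' table of ratios matched the HF20 array in its HF5 column (r = 0.999, against 0.664 for its own array) and the HF5 array in its HF20 column (r = 0.999, against 0.665), whereas 26 of the 28 columns matched their own array with r of at least 0.996. Array labels were kept as given.

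Of the 10 clock genes, Dbp, Nr1d1, Nr1d2, Per1, Per2 and Clock were well above background on all 39 arrays, Arntl on 38 and Cry1 on 33. Per3 (22 arrays) and Npas2 (18 arrays) were dim, and the Npas2 spot of the HF20 array of Week 15 carried an outlier flag and was left out. No spot of the 10 probes used was saturated. For genes with several probes, the probe with the highest mean was used. It correlated with the other probes of its gene at r = 0.70 and 0.39 for Clock, 0.13 for Per2, 0.47 for Cry1, and 0.65 and 0.16 for Nr1d1, over 38 or 39 arrays, so Per2 and Nr1d1 results hold for the probe used.

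Among the activators, Arntl, the partner without which the loop does not run, varied over a wide range. Its level had a lowest value of -3.87 (LFC, Week 18), a median of -1.42 and a highest value of 0.59 (HF5, Week 6) over the 39 arrays. On that LFC array the level was not well above background. In LFC it ran from -3.87 over a median of -1.62 to -0.20, and in HFC from -3.68 over -1.06 to -0.41. The ranges of all diets overlapped. Clock, the DNA-binding partner of Arntl, was the steadiest of the 10 genes, between -0.33 and 1.34 with a median of 0.57, and its SD over the 30 arrays of Week 3 to Week 18 was 0.47 against 1.09 for Arntl. Npas2, which can take the place of Clock, ran from -8.81 to -3.09 with a median of -5.83 over 38 arrays, and much of that range lay where the probe was not well above background.

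**Figure D1:**
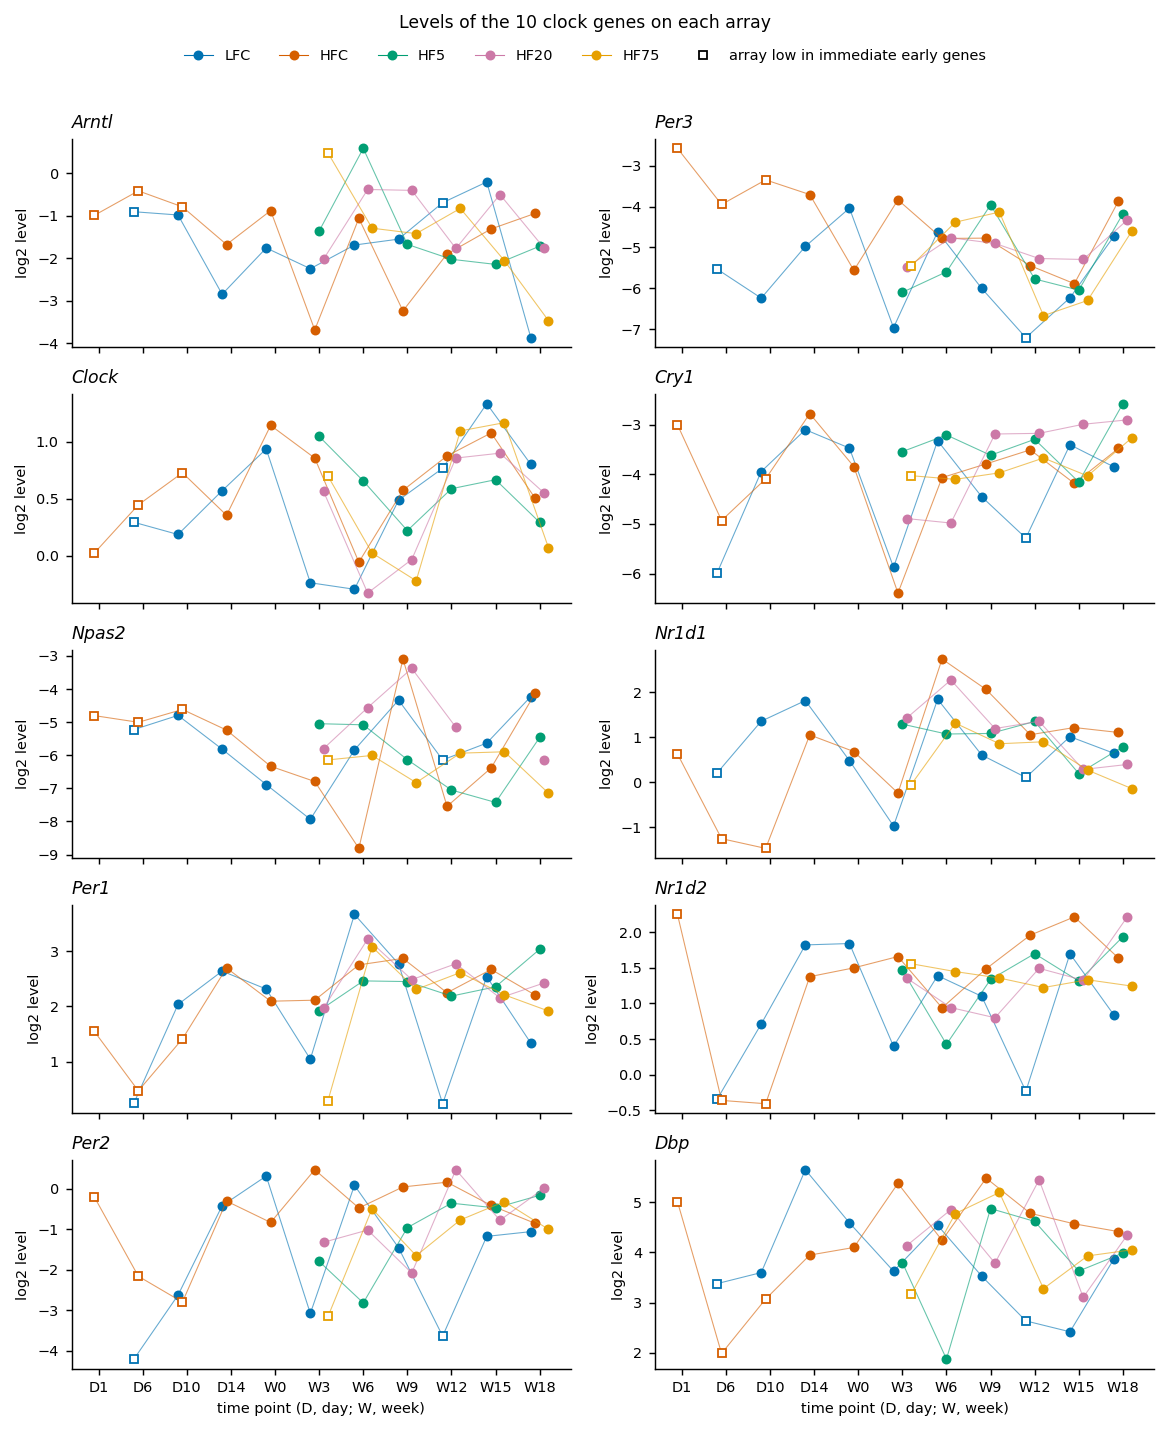
Levels of the 10 clock genes (log2 intensity relative to the 75th percentile of the array, y axis, own scale for each gene) at each time point (x axis), with 1 point per array and colours for the diets. Open squares are the 6 arrays low in immediate early genes. Per1 sits between 0.24 and 1.55 on those 6 arrays and between 1.05 and 3.66 on the others, while Clock spans 0.02 to 0.77 on them and -0.33 to 1.34 on the others.

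Among the repressors of the loop, Per1 ran from 0.24 over a median of 2.31 to 3.66, Per2 from -4.21 over -0.83 to 0.48, Per3 from -7.21 over -4.97 to -2.57 and Cry1 from -6.39 over -3.79 to -2.58. By their medians, Per1 and Per2 were lower on the 6 arrays low in immediate early genes, although HFC of Day 1 and HFC of Day 10 lay within the range of the other arrays in each, and HFC of Day 6 did for Per2: the median of Per1 was 0.39 there and 2.42 on the other 33, and the median of Per2 was -2.98 there and -0.77 on the others. Per1 itself is rapidly induced by stimuli that induce immediate early genes, and over the 39 arrays it correlated at r = 0.79 with the mean of that list and at r = -0.67 with the skeletal muscle mean. The part of either list in the Per1 level was not tested.

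Of the REV-ERB receptors, Nr1d1 ran from -1.48 over 0.90 to 2.74, and Nr1d2 from -0.41 over 1.36 to 2.25. On the 6 arrays named above the median of Nr1d1 was 0.02 against 1.06 on the other arrays, and the median of Nr1d2 was -0.29 against 1.37. Dbp, a transcription factor that passes the rhythm on to metabolic genes through D-boxes, ran from 1.87 (HF5, Week 6) over 4.05 to 5.65 (LFC, Day 14). Its median was 3.12 on the 6 arrays and 4.14 on the others, so Dbp, Nr1d1, Nr1d2, Per1 and Per2 were all lower on these arrays by their medians, whereas Arntl was higher (-0.74 against -1.67) and Clock was level (0.57 on each). For Dbp all 6 arrays lay within the range of the others (1.99 to 5.01 against 1.87 to 5.65). The highest Nr1d2 level of all arrays (2.25) was that of HFC of Day 1, 1 of the 6.

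The main question was whether the clock genes stood in their usual order to each other across arrays, that is, Arntl and Npas2 high where Dbp, Nr1d1 and the Per genes were low. Arntl and Dbp opposed each other. The 3 arrays with the highest Arntl level, HF5 of Week 6 (0.59), HF75 of Week 3 (0.48) and LFC of Week 15 (-0.20), had Dbp levels of 1.87, 3.16 and 2.42. The 3 with the lowest Arntl level, LFC of Week 18 (-3.87), HFC of Week 3 (-3.68) and HF75 of Week 18 (-3.47), had Dbp levels of 3.87, 5.38 and 4.05. On LFC of Week 18 the Arntl probe was not well above background, and that array had the lowest 75th percentile (108 intensity units). Dbp was below its median of 4.05 on all 3 arrays high in Arntl and on 1 of the 3 low in it.

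Over the 39 arrays, Pearson's r of Arntl with Dbp was -0.58 (two-sided permutation p = 0.00017, adjusted p = 0.00127 by Benjamini-Hochberg over the 45 pairs of the 10 genes) and Spearman's rho was -0.54 (p = 0.00046, adjusted p = 0.00366). Without the 2 arrays farthest from the median of Arntl, r was -0.61. Taken as deviations from the mean of each time point, r was -0.61 (permutation p = 8e-05, adjusted p = 0.0012). It was negative in each diet, at -0.64 in LFC, -0.72 in HFC, -0.86 in HF5, -0.41 in HF20 and -0.38 in HF75. Among the 5 arrays of a week it lay between -0.91 and -0.68 from Week 3 to Week 15, but was 0.78 at Week 18. On the 33 arrays not low in immediate early genes it was -0.53.

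**Figure D2:**
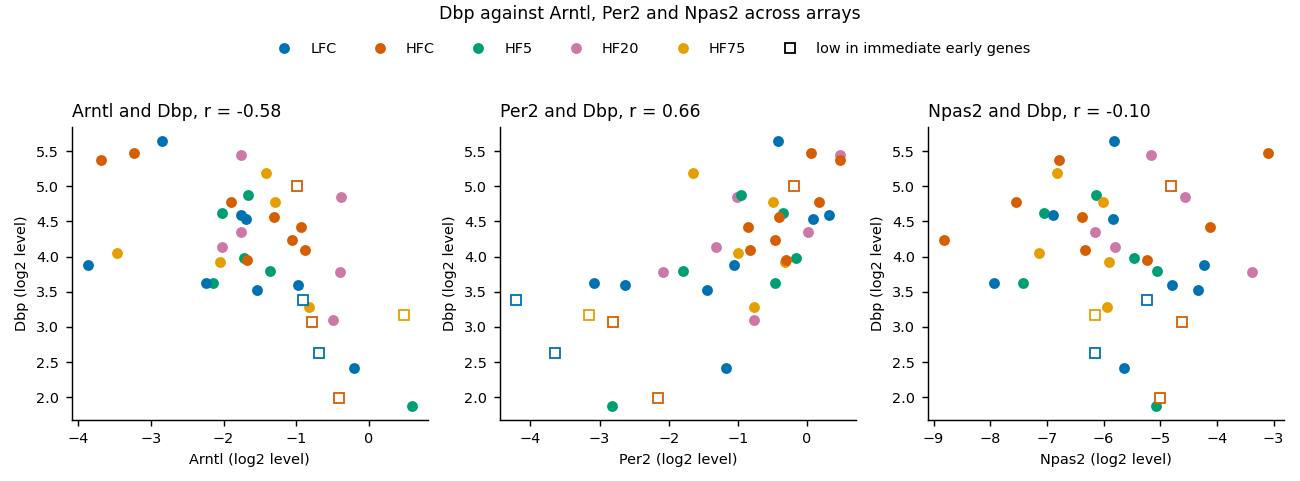
Level of Arntl, Per2 and Npas2 (x axes) against the level of Dbp (y axes) on each array, both as log2 intensity relative to the 75th percentile of the array, with colours for the diets and open squares for the 6 arrays low in immediate early genes. Dbp falls as Arntl rises (r = -0.58), rises with Per2 (r = 0.66), and has r = -0.10 with Npas2, which did not pass.

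Of the genes on the negative side of the loop and its output, Per2, Nr1d2 and Dbp moved together. Per2 and Nr1d2 had r = 0.78 and rho = 0.71, Per2 and Dbp had r = 0.66 and rho = 0.68, and Nr1d2 and Dbp had r = 0.61 and rho = 0.60. Their permutation p-values for r were 1e-05, 2e-05 and 4e-05 (adjusted p = 0.000225, 0.000225 and 0.00036), 1e-05 being the smallest the 100000 permutations can give. All 3 pairs also passed (adjusted p under 0.05) as deviations from the time point means, with r = 0.69, 0.68 and 0.60. Without the 2 arrays farthest from the median of the gene named before the other, r was 0.69, 0.65 and 0.52, and without the 6 arrays low in immediate early genes it was 0.74, 0.58 and 0.45. Of these, the last did not pass at an adjusted p of 0.0569. Within diets these relations varied: Per2 with Nr1d2 had r from -0.65 in HF75 to 0.93 in LFC, Nr1d2 with Dbp from -0.01 in HF75 to 0.84 in HFC, and Per2 with Dbp from 0.31 in HF75 to 0.87 in HFC. Per3 varied in its relation to such genes: it had r = 0.15 with Per1, 0.19 with Nr1d2 and -0.04 with Nr1d1, and none of the 3 passed. With Per2 it had r = 0.36 (adjusted permutation p = 0.0695) and 0.61 within time points, which passed (adjusted permutation p = 0.00405). With Dbp it had r = 0.38 (adjusted permutation p = 0.0506) and rho = 0.43 (adjusted permutation p = 0.0306). The mean of a glucocorticoid response list (Tsc22d3, Fkbp5, Sgk1, Zbtb16 and Per1 itself) moved with the same genes, with r = 0.79 for Per2, 0.71 for Nr1d2, 0.46 for Dbp and -0.41 for Arntl, and the immediate early mean with r = 0.59, 0.55, 0.40 and -0.36. The part of either list in these relations was not tested.

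Per1 correlated positively with Per2 (r = 0.71, rho = 0.53, adjusted permutation p of r = 0.000225) and with Nr1d1 (r = 0.67, rho = 0.64, adjusted permutation p = 0.000225). Within time points the former was 0.78 and passed, and the latter was 0.43 and did not (adjusted permutation p = 0.0593). Without the 6 arrays low in immediate early genes, Per1 and Per2 had r = 0.44, which no longer passed, and Per1 and Nr1d1 had r = 0.62.

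Arntl also opposed Per2, at r = -0.49 (permutation p = 0.00172, adjusted p = 0.0081; rho = -0.54) and at -0.56 within time points (adjusted permutation p = 0.00566). On the 33 other arrays this was -0.39 and did not pass. Among the arrays of a week it lay between -0.97 and -0.77 from Week 3 to Week 15, but was 0.57 at Week 18. Arntl had r = -0.17 with Per1 (adjusted permutation p = 0.486; 0.31 on the 33 arrays) and -0.13 with Per3 (adjusted permutation p = 0.548; -0.23 on the 33 arrays). No relation of Arntl to Nr1d1, its repressor, was detected: r was -0.02 over all arrays (adjusted permutation p = 0.949) and 0.29 without the 6 arrays. Npas2, the other known target of the REV-ERB receptors, had r = 0.16 with Arntl, -0.10 with Dbp, -0.16 with Per2 and 0.09 with Nr1d1, and none passed (adjusted permutation p between 0.493 and 0.68). The Npas2 probe was well above background on only 18 arrays, and a relation that did not pass is not shown to be absent.

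In all, 15 of the 45 pairs passed over all arrays, 13 with positive and 2 with negative r, and 10 passed within time points. Passing both ways were 9 pairs, 7 positive and 2 negative, the negative ones being Arntl with Dbp and Arntl with Per2. Without the 6 arrays low in immediate early genes 5 pairs passed: Arntl with Dbp, Per1 with Nr1d1, Per2 with Nr1d2, Per2 with Dbp, and Per3 with Dbp (r = 0.50, against 0.38 over all arrays). Among the 9 pairs, Per1 with Nr1d2 was then at r = 0.28, Per1 with Dbp at 0.23 and Nr1d1 with Nr1d2 at 0.04. Cry1, which in many tissues peaks later than the Per genes, had r = 0.52 with Nr1d2, 0.48 with Per1 and 0.12 with Dbp over all arrays. Within time points these were 0.38, 0.27 and -0.20 and without the 6 arrays 0.29, 0.31 and -0.16, and none of the latter passed either way.

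**Figure D3:**
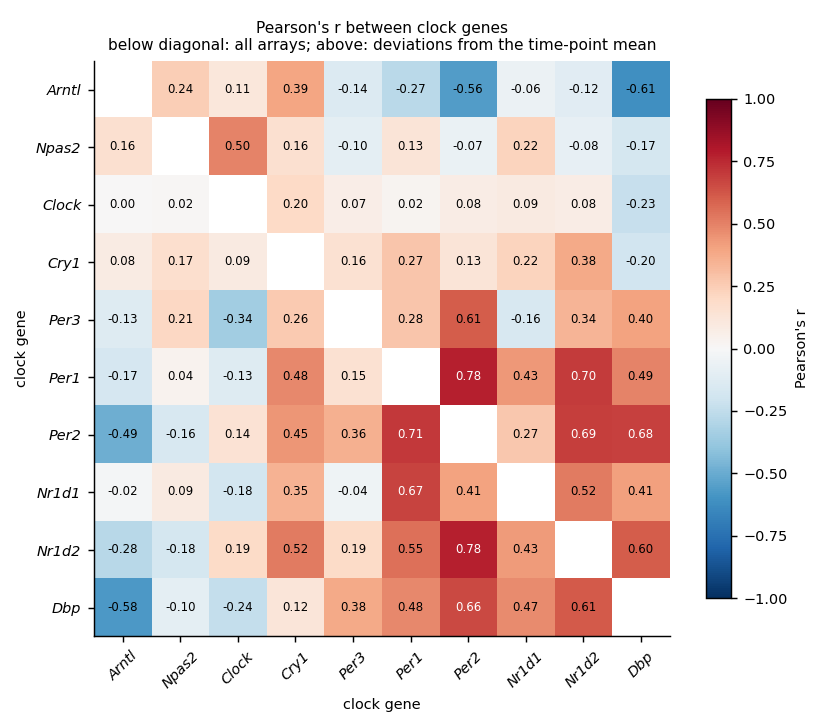
Pearson's r between the levels of the 10 clock genes, over all arrays below the diagonal and as deviations from the mean of each time point above it, from blue (negative) over white to red (positive). Per1, Per2, Nr1d1, Nr1d2 and Dbp form a red block, from 0.41 for Per2 with Nr1d1 to 0.78 for Per2 with Nr1d2 below the diagonal, and the Arntl row is blue against Per2 and Dbp. Without the 6 arrays low in immediate early genes, not drawn here, the block runs from 0.04 for Nr1d1 with Nr1d2 to 0.74 for Per2 with Nr1d2.

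To place these values among the whole transcriptome, every one of 22701 genes that was well above background on at least 6 arrays was ranked by its r with Dbp. These are descriptions over the same 39 arrays, with scaling and array in common, and carry no test. Per2 (r = 0.66) ranked highest and Nr1d2 (0.61) next, followed by Tef (0.61), a close relative of Dbp that binds the same D-box, and Ciart (0.56, named Gm129 on the array), a repressor of the Arntl and Clock pair. Per1 stood at rank 11, Hlf (0.48), the remaining member of the family of Dbp and Tef, at rank 12, and Nr1d1 at rank 13. Per3 stood at rank 106, below several immediate early and glucocorticoid response genes, among them Atf3 (rank 48), Fosb (52), Sgk1 (66), Junb (71) and Egr1 (77). Cry1 (rank 4947), Npas2 (15775) and Clock (21257) were far from the top, as were Cry2 (1607), Rora (4102) and Bhlhe41 (11371) of the wider loop. At the other end, Arntl had the lowest r of all 22701 genes.

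The other genes outside the 10 that were most like Dbp were Rbm12 (r = 0.53), Atf7ip (0.52) and Mcl1 (0.49), and those least like it were Acot5 (-0.54), Tex19 (-0.52), Wfdc3 (-0.50), Gm13812 (-0.50) and Lrrc29 (-0.49). Without the 6 arrays low in immediate early genes Tef had r = 0.85 and rank 1 and Hlf 0.61 and rank 3, with Per2 at 0.58 and rank 4, Per3 at 0.50 and rank 20 and Nr1d2 at 0.45 and rank 51. Per1 (0.23, rank 2281) and Nr1d1 (0.27, rank 1452) were then far from the top. Ciart was at 0.32 and rank 825, and Arntl, at -0.53, was at rank 22694. Rbm12, Atf7ip and Mcl1 had r of 0.32, 0.37 and 0.32 there, and the 5 genes least like Dbp had r from -0.42 to -0.31.

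Arntl had fewer clock genes near it. Its highest r outside the 10 genes was with Gm13812 (0.64), Eif3i (0.64), Gm9068 (0.61), LOC100045405 (0.60) and Exoc4 (0.59), and its lowest with Tspan13 (-0.65), Bsdc1 (-0.65), Prpf4b (-0.62), Dusp3 (-0.61) and Tsga14 (-0.61). At the negative end of the Arntl ranking, Dbp stood at rank 22687, Arntl2 (-0.58), the paralog of Arntl, at rank 22685, Ciart (-0.49) at rank 22570 and Per2 at rank 22568 of 22701. Without the 6 arrays these were at rank 22507 (Dbp), 22383 (Arntl2), 21485 (Ciart) and 21293 (Per2), and the genes most and least like Arntl had r from 0.51 to 0.61 and from -0.64 to -0.53. Zbtb16 (-0.50, rank 22588), Fkbp5 (22388) and Junb (22246) of the other lists also lay at the negative end, but Sgk1 (14617) did not. Without the 6 arrays Zbtb16 (22623) was more negative than Dbp. Tsc22d3 (22076) and Fkbp5 (21561) were more negative than Ciart, whereas Sgk1 (3341) and Fos (655) were positive.

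**Figure D4:**
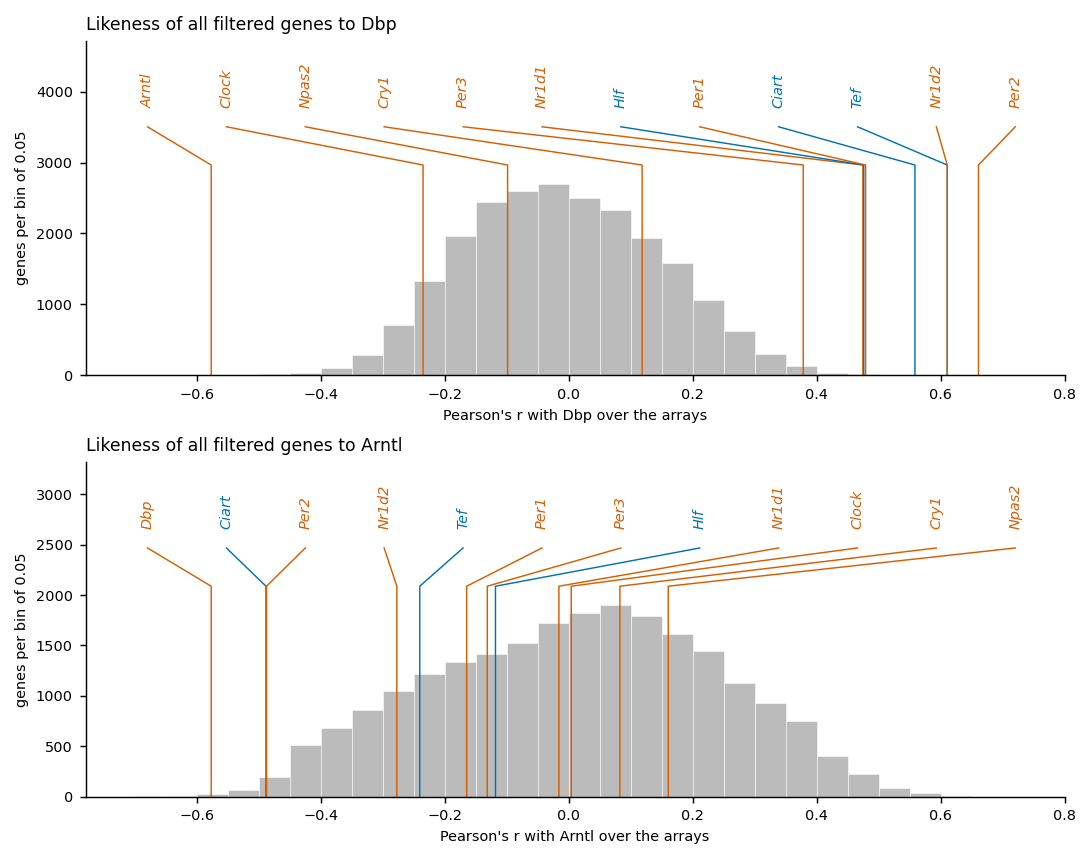
Histograms of Pearson's r of 22701 genes with Dbp (one panel) and with Arntl (other panel) over the 39 arrays, with the number of genes on the y axis. Orange lines mark the other 9 clock genes and blue lines Tef, Ciart and Hlf. Per2 and Nr1d2 sit at the upper edge of the Dbp panel (0.66 and 0.61) and Arntl at its lower edge (-0.58).

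The high-fat diet was compared with the low-fat diet at matched time points, in a limma model with the time point as a block. Over the 10 time points 0 of 19868 genes passed at an adjusted p under 0.05 (0%), and 1165 had an unadjusted p under 0.05 (5.86%). Of the 10 clock genes 1 did, Per3, which lay above LFC at 8 of the 10, by 1.14 on average (SE 0.40, limma p = 0.0148, adjusted p = 0.803). It was well above background on only 4 of the 10 LFC and 8 of the 10 HFC arrays compared, and after normexp background correction the difference was -0.21. Without the arrays low in immediate early genes it was 0.73 (SE 0.47, limma p = 0.156), and of the 9 clock genes then tested none had an unadjusted p under 0.05. The median difference of the 10 genes was 0.22, and that of all genes -0.04.

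Dbp was lower in HFC than in LFC at the early time points and higher at most later ones. From Day 6 to Week 0 its HFC levels were 1.99, 3.07, 3.95 and 4.10, and its LFC levels at the same time points were 3.38, 3.60, 5.65 and 4.59. HFC was lower at 4 of 4 time points, with differences from -1.70 to -0.49. From Week 3 to Week 18 HFC levels had a lowest value of 4.24, a median of 4.67 and a highest value of 5.48, and LFC levels of 2.42, 3.58 and 4.54. HFC was higher at 5 of 6 time points, the exception being Week 6, and the groups overlapped between 4.24 and 4.54.

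Nr1d1 and Nr1d2 followed a like course. Nr1d1 in HFC was at -1.26, -1.48, 1.05 and 0.68 at the 4 early time points, where LFC was at 0.21, 1.36, 1.82 and 0.48, and from Week 3 on HFC was higher at 6 of 6 time points, by 0.20 to 1.46. Nr1d2 was lower in HFC at 4 of 4 early time points, with differences from -1.12 to -0.02, and higher at 5 of 6 later ones. The HFC arrays of Day 6 and Day 10 and the LFC arrays of Day 6 and Week 12 are among the 6 low in immediate early genes.

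The change in the HFC to LFC difference from early to late was 2.40 for Dbp (SE 0.56, limma p = 0.00130, rank 2 of 19868), 2.0 for Nr1d1 (SE 0.54, p = 0.00366, rank 12) and 1.26 for Nr1d2 (SE 0.50, p = 0.0278, rank 171). After adjustment 0 genes passed (0%), and 375 genes had an unadjusted p under 0.05 (1.89%), these 3 of the 10 clock genes among them. The limma adjusted p was 1.00 for each, so none is called. Of the 6 arrays low in immediate early genes 4 lie in this fit (LFC and HFC of Day 6, HFC of Day 10 and LFC of Week 12). With these left out, Dbp had a value of 2.31 (limma p = 0.0178), while Nr1d1 was at 1.03 (p = 0.0784) and Nr1d2 at 0.90 (p = 0.130).

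**Figure D5:**
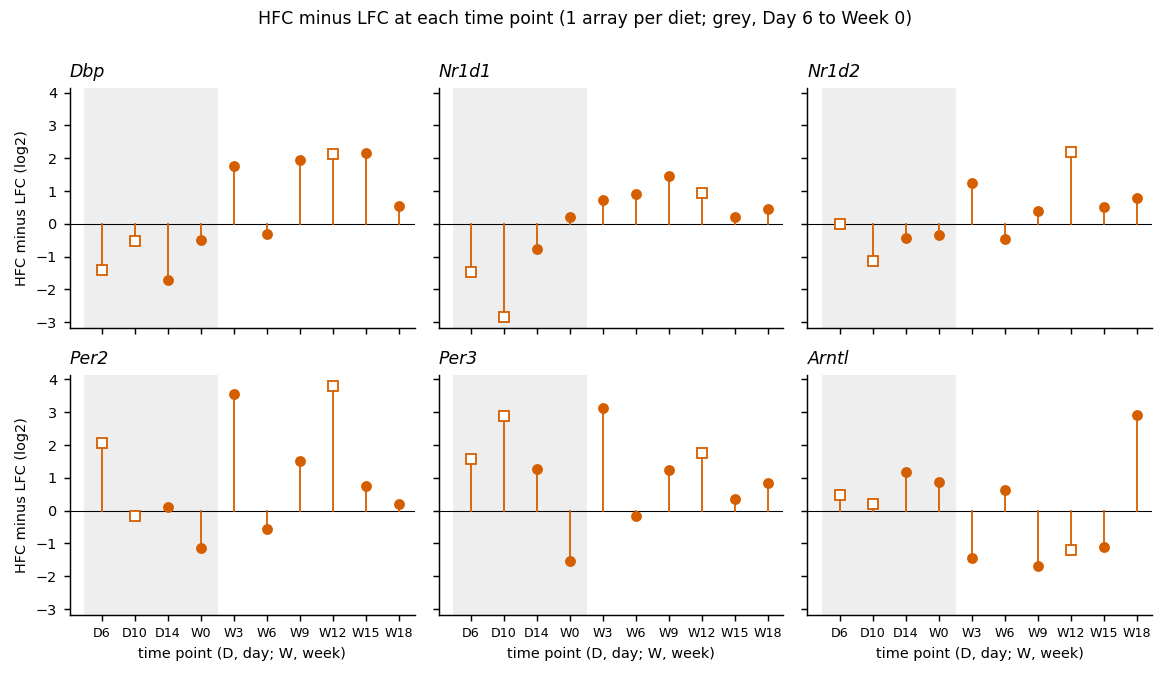
Difference in level between HFC and LFC (log2, y axis) at each of 10 time points (x axis) for 6 clock genes. Grey shading covers Day 6 to Week 0, and open squares mark time points at which one of the arrays is low in immediate early genes. Dbp lies below 0 at all 4 early time points and above 0 at 5 of 6 later ones, and Nr1d1 lies above 0 at 6 of 6 later ones.

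Within Week 3 to Week 18 alone, where all 5 diets were fitted in 1 model, 0 of 21089 genes passed for HFC against LFC (0%). The number with an unadjusted p under 0.05 was 1067 (5.06%), 477 of which were higher in HFC (2.26%). Of the 10 clock genes 5 had an unadjusted p under 0.05, all of them higher in HFC. The median difference of the 10 genes was 0.66, against -0.06 for all genes.

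Per3 was at a lowest value of -5.89, a median of -4.78 and a highest value of -3.84 in HFC, and of -7.21, -6.12 and -4.61 in LFC. The groups overlapped, HFC was higher at 5 of 6 weeks, and the probe was well above background on 4 HFC arrays and 1 LFC array. The difference was 1.19 (SE 0.36, limma p = 0.00300), and it was -0.39 after normexp background correction. Per2 ran from -0.85 over -0.18 to 0.48 in HFC and from -3.64 over -1.31 to 0.09 in LFC, and differed by 1.55 (SE 0.57, limma p = 0.0122), with HFC higher at 5 of 6 weeks. Of the 6 LFC arrays 1 (Week 6, 0.09) lay within the range of the HFC arrays.

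Dbp differed by 1.37 (SE 0.47, limma p = 0.00723). Nr1d2 ran from 0.94 over 1.65 to 2.21 in HFC and from -0.23 over 0.97 to 1.70 in LFC, a difference of 0.78 (SE 0.29, limma p = 0.0138). Nr1d1 ran from -0.24 over 1.16 to 2.74 in HFC and from -0.98 over 0.62 to 1.85 in LFC, a difference of 0.79 (SE 0.35, limma p = 0.0328). For each of the 5 genes the limma adjusted p was 0.850. The groups overlapped for all 5 genes and none passed after adjustment. Arntl differed by -0.31 and was lower in HFC at 4 of 6 weeks, without passing.

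The LFC array of Week 12 bears on these values, for it is low in immediate early genes and has the lowest LFC level of Per1, Per2, Per3 and Nr1d2 after Week 0. Without Week 12, 2 of the 5 genes kept an unadjusted p under 0.05, Per3 at 1.08 (limma p = 0.0148) and Dbp at 1.22 (p = 0.0202). Per2 was then at 1.09 and Nr1d2 at 0.50, while Nr1d1 lay between 0.65 and 0.90 with any 1 week left out. Without the arrays low in immediate early genes 3 did, Per2 at 1.03 (p = 0.0495), Per3 at 1.08 (p = 0.0108) and Dbp at 1.16 (p = 0.0233). With the mean of all probes of a gene in place of its brightest probe, Per2 was at 0.83 (p = 0.0704) and Nr1d1 at 0.52 (p = 0.140). From Week 3 to Week 18 the skeletal muscle mean had a median of -3.90 in HFC and -0.68 in LFC, and the lymphocyte mean of -5.05 and -3.45, and their part in these differences was not tested. In whole tissue, fewer cells of a type and less RNA per cell cannot be told apart.

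The doses of KAL-1 were each compared with HFC at the same weeks. In HF5, 0 genes passed (0%) and 287 had an unadjusted p under 0.05 (1.36%), Dbp and Cry1 of the clock genes among them. Dbp in HF5 was at 3.80, 1.87, 4.87, 4.62, 3.63 and 3.99 from Week 3 to Week 18, and in HFC at 5.38, 4.24, 5.48, 4.78, 4.57 and 4.41. HF5 was lower at 6 of 6 weeks, with differences from -2.37 to -0.16, and the groups overlapped. With the HF5 and HF20 arrays of Week 12 exchanged it was lower at 5 of 6, since the array labelled HF20 was at 5.44 in that week.

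The mean difference of Dbp was -1.01 (SE 0.47, limma p = 0.0401, adjusted p = 1.00). Cry1 was higher in HF5 at 6 of 6 weeks, by 0.03 to 2.85, with a mean difference of 0.84 (SE 0.40, limma p = 0.0482, adjusted p = 1.00). The difference of 2.85 is that of Week 3, where HFC had its lowest level (-6.39), and without Week 3 the mean was 0.43. With the HF5 and HF20 arrays of Week 12 exchanged, as the authors' table has them, 277 genes had an unadjusted p under 0.05 and Cry1 was the sole clock gene among them, while the mean difference of Dbp was -0.88 (SE 0.47, limma p = 0.0780).

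In HF20, 0 genes passed (0%), 891 had an unadjusted p under 0.05 (4.22%), and none of the 10 clock genes did. After normexp background correction 8085 of the 21089 genes tested passed, a larger share than that of the 10 clock genes. Of these the 3 dimmest passed: Npas2 (1.81), Cry1 (1.46) and Per3 (1.36), with limma adjusted p of 0.0154, 0.0154 and 0.0297. The HF20 array of Week 15 carried 4936 outlier spots, against at most 474 on any other array. On it 87.8% of spots were well above background, and its part in these calls was not tested. In HF75, 0 genes passed (0%), 1059 had an unadjusted p under 0.05 (5.02%), and Nr1d1 did, at -0.05, 1.32, 0.86, 0.90, 0.27 and -0.14 from Week 3 to Week 18 where HFC was at -0.24, 2.74, 2.07, 1.06, 1.22 and 1.11. It was lower at 5 of 6 weeks, and the mean difference was -0.80 (SE 0.35, limma p = 0.0299, adjusted p = 0.865). With the arrays low in immediate early genes left out (here HF75 of Week 3 and LFC of Week 12) it was -0.82 (limma p = 0.0389). Over all 20 alternatives it ran from -0.999 to -0.476. Dbp was lower than in HFC at 4 of 6 weeks in HF20 (mean difference -0.53, SE 0.47, or -0.67 with the HF5 and HF20 arrays of Week 12 exchanged, where 987 genes and 0 clock genes had an unadjusted p under 0.05) and at 5 of 6 in HF75 (-0.74, SE 0.47). The 3 doses share the HFC arrays, so a high HFC level lowers all 3 differences together, and the doses were not shown to differ from each other. The skeletal muscle mean had a median of -3.90 in HFC over these weeks and of -1.05, -0.98 and -0.33 in HF5, HF20 and HF75, and Nr1d1 correlated with it at r = -0.52 and Dbp at -0.23 over the 39 arrays. Its part in these differences was not tested.

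With the processing used here, differences between weeks passed for more genes than any diet comparison, though not after normexp background correction, where 646 genes passed for the weeks and 8085 for HF20 against HFC. Over the 5 diets of Week 3 to Week 18, 2531 of 21089 genes differed between weeks at an adjusted p under 0.05 (12.0%) and 7369 at an unadjusted one (34.9%). Of the 10 clock genes 2 passed, Per3 (limma F = 6.51, adjusted p = 0.0187) and Clock (F = 4.67, adjusted p = 0.0436), a share of 10 genes not far from the background. Neither passed with the slide as a random block, after normexp background correction, without Week 6 (where 35 genes passed in all) or without Week 15. Clock passed under 7 of 16 alternatives and Per3 under 10 of 15. Per1, Cry1 and Nr1d1 had an unadjusted p under 0.05, with limma adjusted p of 0.0765, 0.0913 and 0.0513.

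Clock was at -0.30, -0.06, 0.66, -0.33 and 0.02 at Week 6 in LFC, HFC, HF5, HF20 and HF75, and at 1.34, 1.08, 0.67, 0.90 and 1.17 at Week 15. These weeks did not overlap, although HF5 was at nearly the same level in both. Per3, in the same order of diets, was at -4.72, -3.87, -4.18, -4.33 and -4.61 at Week 18 and at -6.23, -5.89, -6.05, -5.29 and -6.30 at Week 15, again without overlap. The probe was well above background on 4 of the 5 arrays of Week 18 and on 1 of the 5 of Week 15, so most Week 15 levels are poorly determined. At Week 12 the Per3 probe was not well above background on any of the 5 arrays, so its level there, from -7.21 to -5.27, is poorly determined too.

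The share of the variance over these 30 arrays that lay between weeks was 57.2% for Clock, 50.1% for Per3, 43.1% for Nr1d1, 42.8% for Per1 and 36.9% for Cry1, but 12.1% for Dbp, 14.8% for Nr1d2 and 14.4% for Per2. The latter 3 genes had larger shares between diets, at 27.8%, 24.1% and 23.3%. Arntl had 20.5% between weeks and 7.92% between diets, so most of its variance lay among arrays within both. Such shares lie above 0 even where weeks or diets do not differ. The limma F test of the weeks gave unadjusted p = 0.525 for Dbp, 0.493 for Nr1d2, 0.436 for Per2 and 0.317 for Arntl. Without the arrays low in immediate early genes 4 clock genes passed, Cry1 (limma adjusted p = 0.0268) and Nr1d1 (0.0482) in addition, beside 4146 of all 20931 genes tested. Only 2 of the 6 arrays, HF75 of Week 3 and LFC of Week 12, are from these weeks, and these were the ones left out. The hour at which tissue was taken is not labelled, so week and hour of day cannot be told apart.

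Over the 10 time points of HFC and LFC, 11 of 19867 genes differed between time points (0.0554%) and 4894 had an unadjusted p under 0.05 (24.6%). None of the 10 clock genes passed, and Npas2, Per1 and Cry1 had an unadjusted p under 0.05. Without Week 12, 2372 genes passed, Cry1 (limma adjusted p = 0.0290) and Per1 (0.0386) of the clock genes among them.

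Genes of the wider clock machinery were read from 3 further lists. Of 11 other components of the loop (Cry2, Arntl2, Bhlhe40, Bhlhe41, Ciart, Timeless, Rora, Rorb, Tef, Hlf and Nfil3), 10 were bright enough to be tested. None passed in any diet comparison, and 1 differed between weeks over the 5 diets, Cry2, the partner of Cry1 (limma adjusted p = 0.0394), beside the 12.0% of all genes that did. For HFC against LFC from Week 3 to Week 18 the smallest p-values were those of Tef, higher by 0.91 (SE 0.36, limma p = 0.0195), and Cry2, higher by 0.66 (SE 0.29, p = 0.0297), with a median of 0.55 for the 10 genes tested against -0.06 for all genes. Tef and Cry2 thus lay on the same side of 0 as Dbp and the Per genes, and the limma adjusted p was 0.850 for each.

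Of 5 kinases and ubiquitin ligase components that act on clock proteins (Csnk1d, Csnk1e, Fbxl21, Btrc and Gsk3b), none passed in any diet comparison and Fbxl21, which marks Cry proteins for ubiquitination, differed between weeks over the 5 diets (limma adjusted p = 0.0256), against the same 12.0%. Fbxl21 was well above background on only 16 of the 39 arrays, and it was not among the 4 of these 5 genes tested over the 10 time points. Of 6 output genes (Noct, Wee1, Usp2, Nampt, Por and Tspo) none passed in any comparison. The lowest p-values of that list were those of Por, the electron donor of cytochrome P450 enzymes and a known target of the Dbp family, which differed from HFC by -0.94 in HF20 (limma p = 0.0224, adjusted p = 0.997) and by -0.86 in HF75 (p = 0.0364, adjusted p = 0.865).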

How the data were processed

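RNA of subcutaneous adipose tissue was hybridised in 1 colour to 39 Agilent arrays. The deposited scanner files hold processed signals in intensity units, which Feature Extraction had corrected for background. The submitters' processing notes name version 9.1, and the file headers a later one. The authors also deposited log2 ratios, each array set against LFC at the same time, used here as an alternative only, in which the 10 LFC columns are 0 throughout.

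Here log2 of the processed signal minus log2 of the 75th percentile of each array was taken, control spots and outlier spots were left out, and a gene was read from the probe with the highest mean. Genes well above background on 10 of the 20 arrays of HFC and LFC, or on 6 of the 30 arrays of Week 3 to Week 18, were tested, which took in all 10 clock genes. limma 3.58.1 (R 4.3.3) compared diets and time points, blocked by time point where diets were compared, and Benjamini-Hochberg adjustment ran over all genes tested. Pairs of genes were compared by correlation with 100000 permutations of the arrays (Python 3.11.15, NumPy 2.4.6, SciPy 1.17.1), within time points where stated. The block follows the study, which set each array against LFC of the same time point; deviations of LFC and HFC at a shared time point correlated at r = -0.53 to 0.76 (median 0.23), over 0.1 at 8 of 10. Scripts were tested on simulated data.

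The members and lists were chosen with earlier results of these data known, and 2 genes of the wider lists are not reported here. Named are the 10 clock genes, the 5 genes most and the 5 least like Dbp and Arntl, and, of each wider list, genes that passed or those with the smallest p. Precision is limited by the number of arrays.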

Additional observations from a re-analysis of the deposited data

Results flagged for a closer look

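Of 100 groups of clock gene levels (each gene over the arrays of a diet or of a week), 5 held an array whose gap to the nearest other was large against the whole range of its group. Chance flags about 1 in 20 groups. The HF5 array of Week 6 stood out in opposite directions in Arntl and Dbp: its Arntl level was 0.59, where the nearest of the 6 HF5 arrays was at -1.36, and its Dbp level was 1.87, where the nearest of the 5 arrays of Week 6 was at 4.24. The LFC array of Week 12, one of those low in immediate early genes, stood out from the other 4 arrays of its week in Per1 (0.24, nearest 2.19) and in Cry1 (-5.29, nearest -3.67). The LFC array of Week 3 stood out from the other 4 arrays of its week in Nr1d2 (0.40, nearest 1.35). The cause of these gaps was not tested.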

How the results depend on the processing

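The diet comparisons and the late minus early change called 0 genes and 0 clock genes under every alternative run, among them quantile normalization, the scan day as a block and no replicate block at all, except for HF20 against HFC after normexp background correction. That fit called 8085 of 21089 genes and 3 of the 10 clock genes. An unmoderated comparison paired over time points gave 0 genes after adjustment in each diet comparison, and at an unadjusted p under 0.05 1065 genes for HFC against LFC over 10 time points and 631 from Week 3 to Week 18. Of the clock genes only Dbp and Nr1d1 were among those 631. The 11 genes that differed between the time points of HFC and LFC became 1 after normexp, 26 after quantile normalization, 0 without a filter, 3 with a filter on every array, 0 without the arrays low in immediate early genes (an alternative chosen after seeing the data) and 0 to 2372 with a time point left out. The count of clock genes there was 0 to 2 with a time point left out. The 2531 genes that differed between weeks over 5 diets became 646 after normexp, 1537 without a filter, 1033 with the slide as a random block, 4146 without the arrays low in immediate early genes and 35 to 3578 with a week left out. Of the clock genes, 2 in the reported fit, these gave 0, 1, 0, 4 and 0 to 3, and 1 passed with the mean of all probes and 1 without the HF20 array of Week 15 (chosen after seeing the data). Of the 45 pairs of clock genes, 15 passed in the reported setting, 8 without the 2 arrays farthest from the median, 21 after normexp, 5 without the arrays low in immediate early genes, and 8 (without Day 6) to 16 with a time point left out. Arntl with Dbp passed under all 20 alternatives, with r from -0.72 to -0.52, as did Per2 with Dbp (0.50 to 0.82) and Per2 with Nr1d2 (0.60 to 0.85). After normexp 4 values changed sign: Per3 in HFC against LFC (-0.21 over 10 time points, -0.39 from Week 3 to Week 18), r of Per1 with Cry1 (-0.021) and r of Cry1 with Nr1d2 (-0.10). The cause of the other changes was not tested. The slide as a random block could not be fitted for the 20 arrays of HFC and LFC.

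The limits are the 1 array for each diet and time point, the unlabelled hour of day, and the dim probes of Npas2 and Per3, which were well above background on only 18 and 22 of the 39 arrays.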
